A study of Mus musculus with 53 samples.

Results

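Dorsal skin and proximal small intestine of wildtype CB6 mouse embryos at embryonic day 18.5 (E18.5) were compared across all 18194 genes named on 1 type of expression array. The comparison used 5 of the 53 arrays of the series, chosen by tissue, age and array type: 3 of skin and 2 of small intestine. Small intestine array 3 was left out because it carried stomach transcripts, and its values are given separately. Each gene was read from its brightest probe set. Whole tissue was homogenized for total RNA, so each array holds epithelium, mesenchyme, muscle, nerve, vessel and blood cells together. The series text states that the E18.5 skin arrays came from an earlier study of the same laboratory and the small intestine arrays from the present one, so tissue and study of origin cannot be told apart. Nothing in the labels states that replicate arrays are of different embryos. The p-values therefore refer to array-to-array spread, which could be technical.

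The epidermis is a stratified squamous epithelium. Its basal cells rest on the basement membrane and divide, and their daughters move outward, change keratins and end as dead cornified cells that seal the body against water loss and microbes. The epithelium of the small intestine is a single layer of columnar cells, most of them enterocytes whose apical membrane is folded into a brush border of microvilli, with goblet and hormone-secreting cells between them. It digests and takes up nutrients while also acting as a barrier. Late in mouse gestation the epidermal barrier closes and the villi are lined by absorptive cells.

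Levels are given as log2(intensity + 16) after quantile normalization, on which an intensity of 0 has the level 4. A difference is skin minus small intestine on that log2 scale, given with its standard error (SE). The SE comes from limma, a linear model test fitted to 25 arrays in 9 groups. Besides the 2 compared groups, these were skin and bladder at earlier embryonic ages, and bladder, esophagus and stomach at E18.5. The E18.5 bladder arrays were of Get1 +/- mice. These other groups entered only the normalization, the choice of probe set and the estimate of spread. A difference understates the fold change of dim genes. Genes counted as called had an adjusted p under 0.05 (Benjamini-Hochberg over all named genes) and at least a 2-fold difference; a second count used at least 8-fold. No filter on low values was applied. Brightness also depends on the probe set, so levels were compared between tissues within a gene and not between genes. In whole tissue, fewer cells of a type and less RNA per cell cannot be told apart.

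By this rule 1974 genes (10.8% of all tested) were higher in skin and 2078 (11.4%) higher in small intestine, together 4052 (22.3%). At least 8-fold differences numbered 457 genes higher in skin (2.51%) and 512 higher in small intestine (2.81%), together 969 (5.33%). The levels of all 3 skin arrays lay on 1 side of both small intestine arrays for 59.9% of all genes. The median difference over all genes was 0.04 and the median size of a difference was 0.40. The SD of the log2 differences between 2 arrays was 0.475 to 0.524 within skin, 0.405 between small intestine arrays 1 and 2, and 1.44 to 1.47 between tissues. A second probe set existed for 2123 called genes and differed in the same direction for 1884 of them (88.7%), and for 372 of 388 genes called at 8-fold (95.9%).

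**Figure D1:**
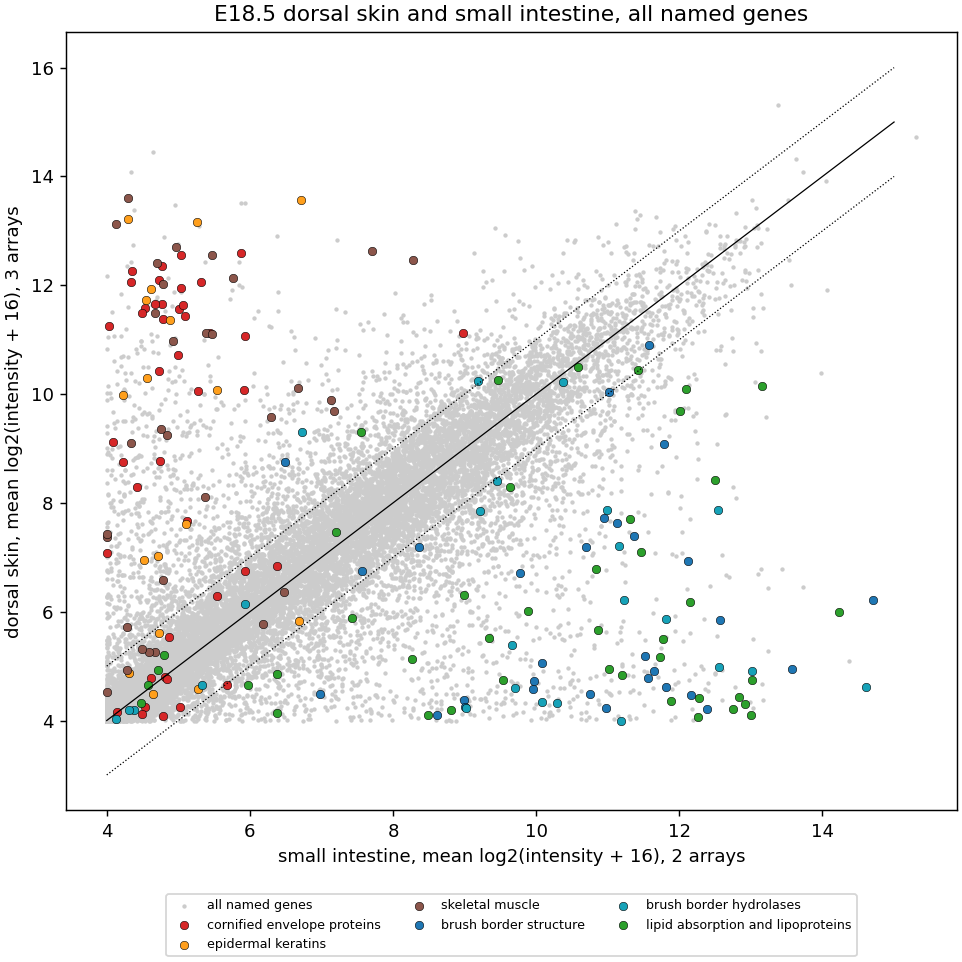
Mean log2(intensity + 16) of each named gene in small intestine (horizontal, 2 arrays) and dorsal skin (vertical, 3 arrays) at E18.5, with 6 gene lists coloured. The solid line marks equal levels and the dotted lines a 2-fold difference. Cornified envelope proteins, epidermal keratins and skeletal muscle genes lie mostly along the left edge, near the floor in small intestine, and the brush border and lipid absorption genes mostly along the bottom, near the floor in skin.

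Both labels were checked against defining markers. Krt5, the keratin of basal epidermal cells, read 13.21, 13.25 and 13.17 on the skin arrays and 4.14 and 4.45 on small intestine arrays 1 and 2. Trp63, the p63 transcription factor of stratified epithelia, read 10.46, 10.51 and 11.07 in skin against 4.33 and 4.27. Vil1, the villin of microvillus cores, read 4.31, 4.00 and 4.31 in skin and 12.43 and 12.35 in small intestine. In each of these genes the tissues were far apart and the arrays of a tissue close together. All 7 epidermal defining markers and all 7 of small intestine were high in the labelled tissue on the 5 arrays. Small intestine array 2 carried more skin, liver and stomach transcripts than array 1: Krt1 read 4.01 on array 1 and 6.52 on array 2, and Alb, serum albumin, 4.69 and 9.24. Array 2 read higher than array 1 for 37 of 43 cornified envelope genes, 26 of 33 stomach genes and 23 of 26 liver genes. Krt1 on array 2 stayed below all skin arrays. Krt4 and Sprr3, singled out after their values were seen, read 7.97 and 6.035 there, against at most 5.90 and 4.58 in skin. Both were higher still on left-out array 3 (13.63 and 12.75). Array 2 thus carried, more weakly, transcripts also found on array 3.

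The 12 genes with the largest called differences toward skin, at most 3 of a family, spanned several cell types. Serpina12, the adipokine vaspin, which is also made in keratinocytes, read 14.33, 14.33 and 14.71 in skin and 4.58 and 4.70 in small intestine, a difference of 9.81 (SE 0.26, limma adjusted p = 4.12e-17). Dsc1, the desmocollin of upper epidermal layers, differed by 9.73 (SE 0.28), Krt5 by 8.91 (SE 0.41) and the cadherin gene Cdh3 by 8.08 (SE 0.18). Calm4, a calmodulin-like gene of epidermis, differed by 8.36 (SE 0.30), and Krt27, a keratin of the hair follicle's inner root sheath, by 8.17 (SE 0.41). Muscle was represented by Ttn, the giant sarcomere protein titin (9.31, SE 0.42), Myh8, a perinatal myosin heavy chain (9.00, SE 0.32), and Pgam2, a muscle enzyme of glycolysis (8.09, SE 0.47). The remaining 3 were the homeobox gene Hoxa7 (9.00, SE 0.17), Srcin1 (8.51, SE 0.20) and Adipoq, the adipocyte hormone adiponectin (8.07, SE 0.72).

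The 12 largest toward small intestine were mostly enterocyte genes. Mep1a, a subunit of the brush border protease meprin, read 4.58, 4.79 and 4.50 in skin and 14.61 on both small intestine arrays, a difference of -9.99 (SE 0.22, limma adjusted p = 3.91e-18). Pigr, the receptor that carries immunoglobulin A across the epithelium, differed by -9.27 (SE 0.21). Fabp1 (-8.89, SE 0.41) binds fatty acids in the enterocyte, Apoa1 (-8.62, SE 1.32) and Apoc2 (-8.55, SE 1.07) are apolipoproteins, and Cdhr2 (-8.62, SE 1.20) and Cdhr5 (-8.50, SE 0.23) are the cadherins that link microvillus tips. Gucy2c (-8.80, SE 0.28) is the receptor of guanylin, Tff3 (-8.79, SE 0.73) a goblet cell peptide, Sct (-8.48, SE 0.23) the hormone secretin; Lypd8 differed by -8.64 (SE 0.91). Cela2a, a pancreatic elastase, read 14.13 and 11.81 on the small intestine arrays and 4.11, 4.03 and 4.06 in skin (-8.90, SE 0.47). The SE comes from the spread over all 9 groups, so genes that vary within the other groups have a larger one. Genes that vary mainly within the 5 compared arrays have a smaller one than these arrays alone would give. Krt27 had an SD of 1.30 over the skin arrays and an SE of 0.41. For such genes the SE and p-value understate the spread within skin or small intestine.

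**Figure D2:**
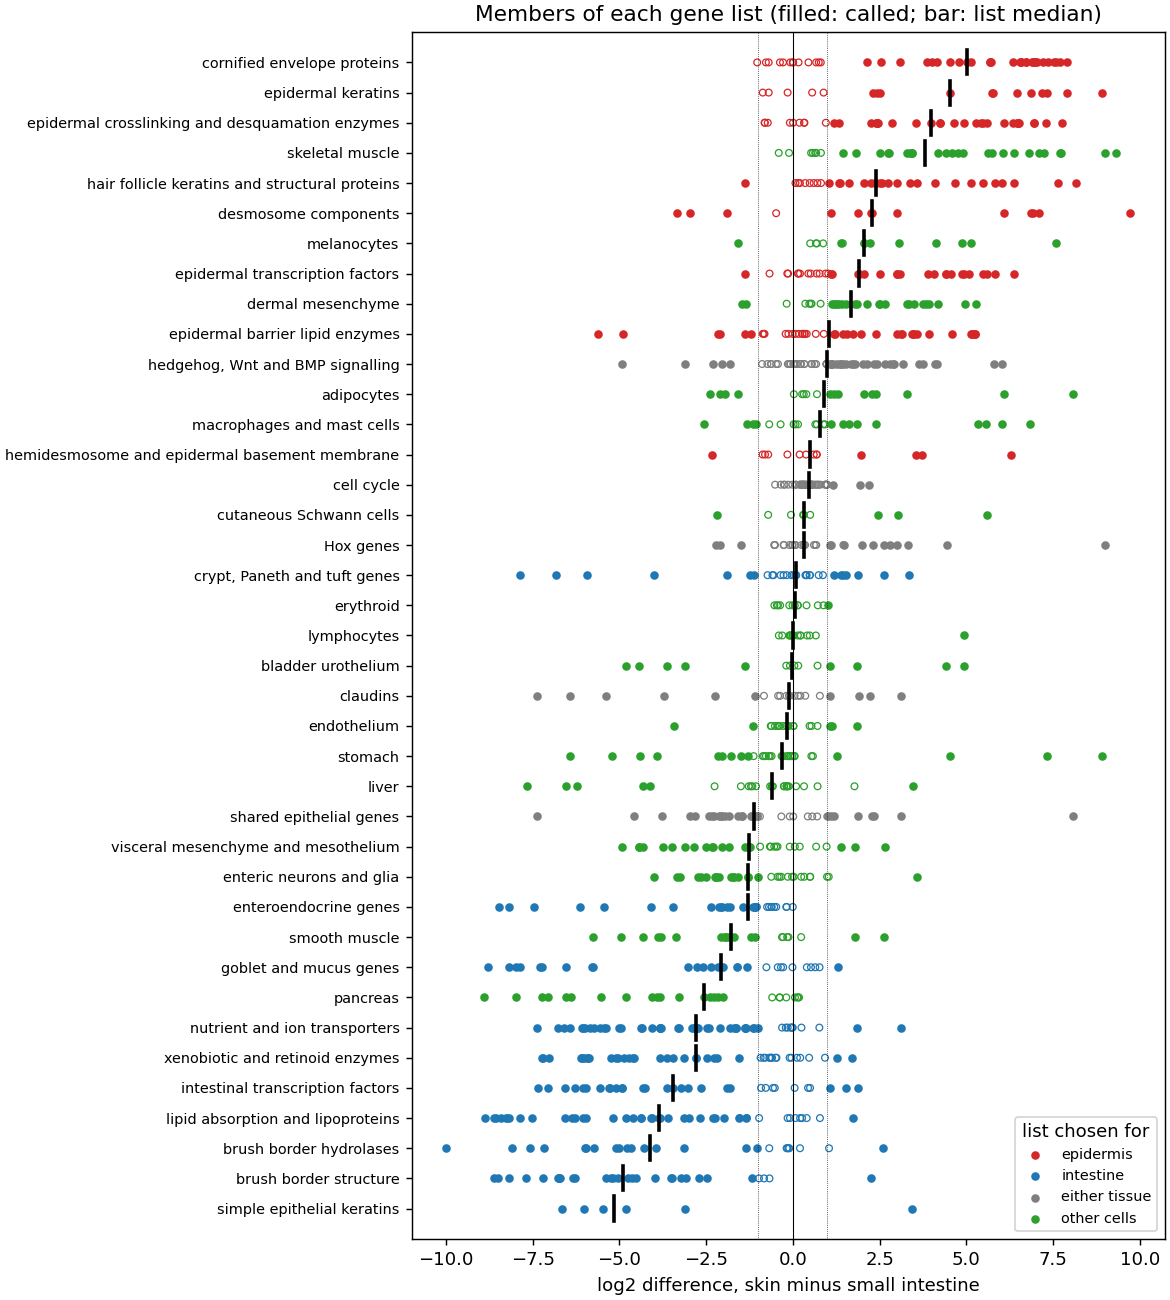
Difference of each list member in log2 units, skin minus small intestine, with 1 row per gene list ordered by its median (black bar). Filled points were called at adjusted p under 0.05 and at least 2-fold, open points were not, dotted lines mark 2-fold, and colour gives the tissue or cells a list was chosen for. The cornified envelope list has the highest median (5.03) and the simple epithelial keratins the lowest (-5.15).

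Keratins are the intermediate filament proteins of epithelia. Of 17 measured keratins of stratified epithelia, 12 were higher in skin and 0 higher in small intestine, with a median difference of 4.54. The basal keratin Krt14 read 11.77, 11.91 and 11.54 in skin and 4.00 and 5.08 in small intestine, and Krt15, also basal, 11.82, 12.06 and 11.93 against 4.00 and 5.24. The suprabasal Krt1 differed by 7.89 (SE 0.63) and its partner Krt10 by 6.86 (SE 0.38). Array 2 read higher than array 1 for all 17, by more than 1 log2 unit for 6 of them, and the tissues still did not overlap in Krt14, Krt15, Krt1 or Krt10. Krt17 (5.74, SE 0.30) and Krt79 (6.48, SE 0.27) mark hair follicle and duct cells, and Krt78 differed by 5.76 (SE 0.70). Krt2, a late suprabasal keratin singled out after its values were seen, read 4.61, 4.21 and 4.66 in skin and 4.63 and 4.66 in small intestine.

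The keratins of simple epithelia ran the other way in 5 of 6 measured members. Krt8 read 5.49, 6.36 and 5.93 in skin and 11.92 and 11.95 in small intestine (-6.0, SE 0.47, limma adjusted p = 1.19e-09). Its partner Krt18 differed by -5.48 (SE 0.52), Krt19 by -6.66 (SE 0.29), Krt7 by -3.11 (SE 0.28) and Krt20, a keratin of mature enterocytes and goblet cells, by -4.81 (SE 0.71). Krt23 was the exception: it read 9.35, 9.35 and 10.59 in skin and 6.58 and 6.09 in small intestine (3.43, SE 0.47).

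The cornified envelope is the protein shell of the dead outer cells. Of 43 measured envelope genes, 30 were higher in skin and 0 higher in small intestine, against 10.8% and 11.4% of all genes, with a median difference of 5.03. Flg, the filaggrin that bundles keratin, read 12.26, 12.28 and 12.55 in skin and 4.49 and 5.07 in small intestine (7.59, SE 0.45). Lor, loricrin, the main envelope protein, read 11.48, 11.49 and 11.73 against 4.72 and 5.30. Neither gene's tissues came near each other. Hrnr, hornerin, differed by 7.90 (SE 0.37), and 4 late envelope genes, Lce1a1, Lce1c, Lce1f and Lce1m, by 7.05 to 7.71. The cystatin A family genes Csta1 (6.98, SE 0.38) and Stfa3 (7.53, SE 0.51) encode protease inhibitors. Lce1 and cystatin A family members are close copies, and probe sets for them may read more than 1 member. Ivl, involucrin, chosen here after its values were seen, read 10.93, 10.24 and 10.97 in skin and 4.52 and 5.47 in small intestine. Of the 13 members not called, Sprr3 and Lce3b, also chosen after their values were seen, read at most 4.95 in skin. On small intestine array 2, 37 of the 43 genes read higher than on array 1, 10 of them by more than 1 log2 unit; without array 1, 30 members were higher in skin and 3 in small intestine.

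Promoters were searched for short motifs in RefSeq sequence of build GRCm38.p6, from 250 bases before to 50 after the first-listed transcription start, on both strands. The AP-1 motif, TGANTCA, bound by Jun and Fos proteins, stood in 14 of the 36 envelope gene promoters that could be read (38.9%) and in 6.33% of 14453 tested genes with a promoter. It stood in 1 of 9 epidermal keratin promoters (11.1%). The TATA box, TATAAA, stood in 18 of the 36 (50%) and in 9.87% of all. Neighbouring envelope genes arose by duplication and share promoter sequence, so these promoters are not independent, and a match describes letters, not binding. The windows below are the 200 bases before the start of 4 skin genes described here, printed 5′ to 3′ on the gene's strand, with the AP-1 match in capitals: Flg (chr3:93273346-93273545, plus strand), Lor (chr3:92083143-92083342, minus strand), Serpinb12 (chr1:106934249-106934448, plus strand) and Dmkn (chr7:30763556-30763755, plus strand). The match lies 97 to 103 bases before the start in Flg, 42 to 48 in Lor, 39 to 45 in Serpinb12 and 83 to 89 in Dmkn.
Flg: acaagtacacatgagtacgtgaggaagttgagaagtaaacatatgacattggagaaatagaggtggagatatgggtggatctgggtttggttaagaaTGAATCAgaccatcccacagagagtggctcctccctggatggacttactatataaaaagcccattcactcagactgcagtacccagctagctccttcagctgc
Lor: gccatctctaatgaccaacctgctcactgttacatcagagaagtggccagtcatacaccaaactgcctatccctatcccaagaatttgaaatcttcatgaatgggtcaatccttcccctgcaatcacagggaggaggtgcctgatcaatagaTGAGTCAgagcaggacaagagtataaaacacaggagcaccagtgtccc
Serpinb12: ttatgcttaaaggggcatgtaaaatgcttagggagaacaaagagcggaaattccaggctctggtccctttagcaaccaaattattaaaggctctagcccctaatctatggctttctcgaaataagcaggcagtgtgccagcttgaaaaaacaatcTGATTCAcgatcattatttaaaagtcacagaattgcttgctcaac
Dmkn: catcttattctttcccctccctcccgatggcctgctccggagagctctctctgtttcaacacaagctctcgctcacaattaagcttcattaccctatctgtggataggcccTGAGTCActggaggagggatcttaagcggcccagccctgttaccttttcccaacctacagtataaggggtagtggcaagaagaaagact

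Among the enzymes that crosslink the envelope, process filaggrin and shed cornified cells, 28 of 37 measured were higher in skin and 0 in small intestine, with a median difference of 3.98. Casp14, the caspase that takes part in filaggrin breakdown, read 10.75, 11.06 and 11.38 in skin and 4.00 and 4.20 in small intestine (6.96, SE 0.30). Klk5, a kallikrein protease that cuts corneodesmosomes, differed by 6.47 (SE 0.44), and Asprv1, a retroviral-like protease that cuts profilaggrin, by 7.76 (SE 0.38). The serpins Serpinb5 (6.48, SE 0.25) and Serpinb12 (6.94, SE 0.43), the secreted dermokine Dmkn (6.53, SE 0.28), the calmodulin-like Calml3 (6.50, SE 0.25) and the thioesterase gene Them5 (7.31, SE 0.40) were likewise higher in skin. Tgm1, the transglutaminase of the envelope, singled out after its values were seen, read 9.14, 9.42 and 9.84 against 5.19 and 5.24.

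The lipids between cornified cells are made by a separate set of enzymes. Of 42 measured, 21 were higher in skin and 6 in small intestine, against 10.8% and 11.4% of all genes, with a median difference of 1.04. The count in small intestine was near the share over all genes and is not read as a result about the set. It was 4 with the mean of probe sets. The lipoxygenases Alox12b (5.25, SE 0.51) and Aloxe3 (5.22, SE 0.36), the ceramide synthase Cers3 (5.25, SE 0.30), the fatty acid elongase Elovl4 (5.15, SE 0.31), the ceramidase Acer1 (4.59, SE 0.29) and the lipase Lipm (5.13, SE 0.47) were higher in skin. Degs2, which makes phytoceramide, read 5.30, 5.74 and 6.51 in skin and 10.76 and 10.71 in small intestine (-4.89, SE 0.31). Sgpp2, a sphingosine phosphate phosphatase, read 4.37, 4.65 and 4.83 in skin and 10.36 and 10.09 in small intestine (-5.61, SE 0.42). Both therefore stood higher in the tissue without a cornified layer.

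**Figure D3:**
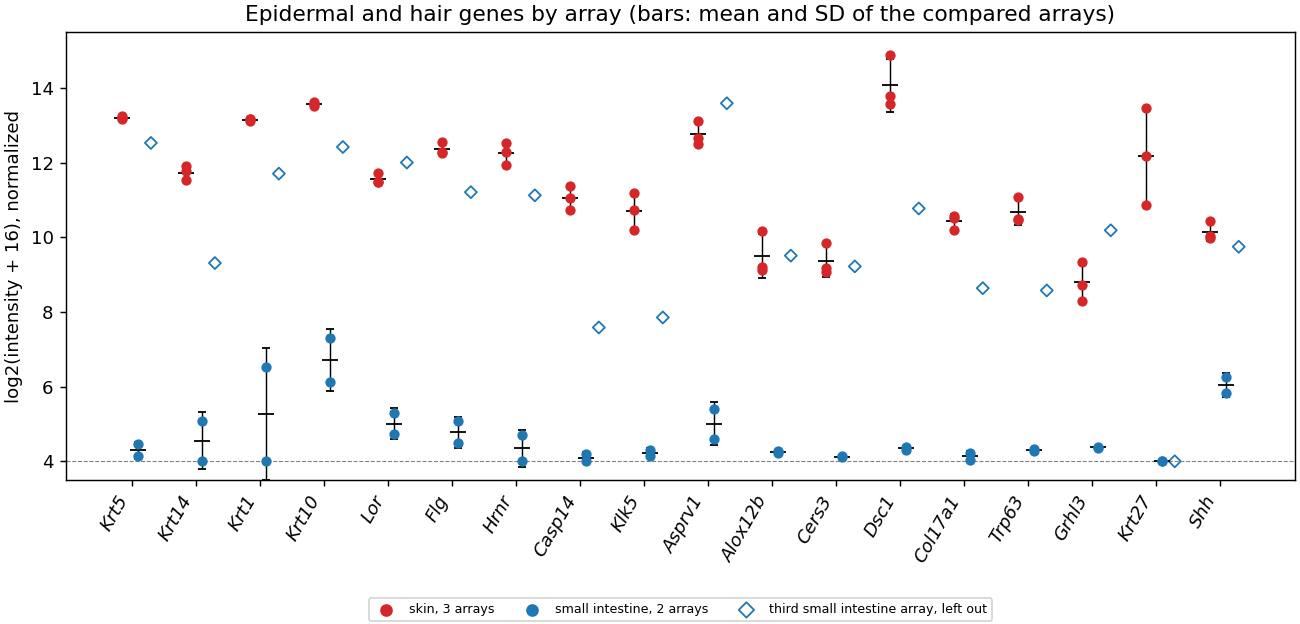
Level of 18 epidermal and hair genes, log2(intensity + 16), on each E18.5 array: red points are the 3 skin arrays, blue points the 2 small intestine arrays compared, open diamonds small intestine array 3, and black bars the mean and SD of the compared arrays. The dashed line is the floor of 4. The compared groups do not overlap for any gene drawn, while the open diamond reaches 12.53 for Krt5 and 12.01 for Lor.

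Desmosomes join cells through desmosomal cadherins and plaque proteins. Of 14 measured, 10 were higher in skin and 3 in small intestine (median 2.28), with different isoforms higher in each tissue. Dsc1 read 13.78, 13.56 and 14.88 in skin and 4.38 and 4.31 in small intestine, Dsc3 differed by 6.92 (SE 0.30), and Dsc2 by -2.95 (SE 0.19), reading 8.17 and 8.35 in small intestine against 5.35, 5.10 and 5.48. Dsg1a, a desmoglein of the upper epidermis, differed by 6.87 (SE 0.30), and Dsg2, singled out after its values were seen, by -1.89 (SE 0.25). Among plakophilins Pkp1 differed by 7.09 (SE 0.56), Pkp3 by 2.29 (SE 0.22) and Pkp2 by -3.33 (SE 0.42). The common plaque proteins were measured in both tissues: Dsp, desmoplakin, read 12.35, 12.19 and 12.21 in skin and 10.30 and 10.42 in small intestine (1.89, SE 0.19), and Jup, plakoglobin, differed by 1.11 (SE 0.20; 0.97 without skin array 3, under 2-fold). Cdsn, the corneodesmosin of cornified cells (6.08, SE 0.42), and Perp (3.00, SE 0.17) were higher in skin.

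Of 14 measured genes of hemidesmosomes and the epidermal basement membrane, 4 were higher in skin and 1 in small intestine. Col17a1, the transmembrane collagen of hemidesmosomes, read 10.21, 10.57 and 10.52 in skin and 4.04 and 4.24 in small intestine (6.29, SE 0.22). Lamb3 (3.73, SE 0.37) and Lama3 (1.96, SE 0.35; 0.96 and not called with the mean of its probe sets) encode chains of the laminin of the epidermal basement membrane, and Col7a1 (3.55, SE 0.28) anchoring fibril collagen. Itga3, the integrin alpha chain that binds laminin, differed by -2.33 (SE 0.27).

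Hair follicles form in the skin at this stage. Of 32 measured hair genes, 23 were higher in skin and 1 in small intestine (median 2.39). The count in skin fell to 16 with only the 2 groups in the fit and to 18 without skin array 2. Krt27 read 10.87, 13.47 and 12.19 in skin and 4.00 and 4.01 in small intestine, and its inner root sheath partners Krt25, Krt71 and Krt73 differed by 6.04 (SE 0.37), 6.39 (SE 0.43) and 5.15 (SE 0.39). The skin arrays themselves ranged widely here: skin array 2 was the highest and skin array 1 the lowest for Krt25, Krt27, Krt28, Krt35, Krt71 and Krt73, by more than 2 log2 units in each. In skin at E16.5, 3 arrays of the same series, Krt27 had a mean of 4.03 and Krt25 of 4.10. Krt35, a hair cortex keratin, read 12.40, 14.61 and 13.53 in skin but 4.01 and 7.74 on small intestine arrays 1 and 2, and its difference was 5.77 without array 1 and 9.50 without array 2. Foxn1, the factor mutated in nude mice, read 4.17 and 8.62 on these 2 arrays against 11.80, 12.16 and 11.64 in skin, with a difference of 3.25 without array 1 and 7.70 without array 2. Both differences kept their direction. With 1 small intestine array left, these fits cannot measure the disagreement between the 2 arrays.

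Of 35 measured transcription factors of epidermis and hair, 22 were higher in skin and 1 in small intestine (median 1.91). Trp63 differed by 6.38 (SE 0.32), and other factors of epidermal differentiation were also higher in skin: Zfp750 by 4.87 (SE 0.32), Tfap2a by 4.42 (SE 0.34), Tfap2b by 4.07 (SE 0.36), Tfap2c by 4.55 (SE 0.29) and Gata3 by 4.93 (SE 0.18). The grainyhead-like factors act in epithelial barrier formation. Grhl1 read 9.46, 9.97 and 10.28 in skin and 4.78 and 4.87 in small intestine (5.08, SE 0.28), and Grhl3 read 8.30, 8.73 and 9.35 against 4.39 and 4.35 (4.43, SE 0.25). Grhl2 was measured in both tissues, at 7.60, 7.76 and 7.62 in skin and 6.80 and 6.49 in small intestine, and its difference of 1.02 (SE 0.18) fell under 2-fold without skin array 2 (0.97) or small intestine array 2 (0.87), and was 0.35 (adjusted p = 0.0528) with the mean of its probe sets. Among the hair factors, Lhx2 differed by 5.83 (SE 0.26), Msx2 by 2.52 (SE 0.37) and Pou3f1 by 5.60 (SE 0.31). Hoxc13 read 6.53, 7.81 and 6.70 in skin and was listed at 0 on both small intestine arrays. Dlx3 (3.90, SE 0.32), Dlx5 (3.00, SE 0.32), Pou2f3 (3.08, SE 0.28), Nfatc1 (2.06, SE 0.30), Tbx1 (1.91, SE 0.27), Hopx (1.92, SE 0.36) and Barx2 (1.88, SE 0.23) were higher in skin, and Dlx2 (1.1, SE 0.39) missed the threshold when skin array 2, skin array 3 or either small intestine array was left out (adjusted p 0.0525 to 0.120). The 12 not called included Ovol1 (0.45, 95% interval -0.05 to 0.94), Cebpa (0.15, -0.20 to 0.50) and Prdm1 (-0.67, limma adjusted p = 0.12). Foxq1 was the 1 member higher in small intestine (-1.39, SE 0.20).

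The brush border is built on actin bundles, linked at the tips by cadherins. Of 30 measured structural genes, 26 were higher in small intestine and 1 in skin, against 11.4% and 10.8% of all genes, with a median difference of -4.90. Vil1 differed by -8.19 (SE 0.65), and Pls1, another actin bundler, by -6.77 (SE 0.61). Cdhr5 read 5.83, 6.17 and 6.62 in skin and 14.71 on both small intestine arrays, and Cdhr2 5.16, 4.90 and 4.79 against 13.50 and 13.63. Cdh17, liver-intestine cadherin, differed by -7.69 (SE 0.44), Pdzk1, a scaffold of apical transporters, by -6.73 (SE 0.43), Eps8l3 by -6.73 (SE 0.69) and the tetraspanin relative Tm4sf5 by -7.21 (SE 0.28). The member higher in skin was Cobl, an actin nucleator (2.27, SE 0.27), singled out after its value was seen.

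Of 24 brush border hydrolases measured, 16 were higher in small intestine and 1 in skin (median -4.12). Lct, the lactase that digests milk sugar, read 4.83, 4.91 and 4.99 in skin and 13.03 and 13.01 in small intestine (-8.11, SE 0.28). Mep1b, the second meprin subunit, was listed at 0 on all 3 skin arrays and read 11.10 and 11.27 in small intestine. Alpi, intestinal alkaline phosphatase (-7.58, SE 0.56), Mgam, maltase-glucoamylase (-5.73, SE 0.63), Ace, angiotensin-converting enzyme (-5.95, SE 0.50), and Naaladl1, a peptidase (-5.98, SE 0.21), were higher in small intestine, as was the membrane serine protease gene Tmprss2 (-5.11, SE 0.64). Nt5e, an ectonucleotidase singled out after its value was seen, was the 1 member higher in skin (2.59, SE 0.38).

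Of 52 transporters measured, 41 were higher in small intestine and 2 in skin (median -2.78). Slc2a2, the GLUT2 glucose carrier, read 4.04, 4.00 and 4.18 in skin and 10.46 and 10.52 in small intestine. Slc3a1 (-6.08, SE 0.33) and Slc7a9 (-7.38, SE 0.50) form the carrier of cystine and basic amino acids, and Slc7a8 (-6.05, SE 0.30) carries neutral ones. Slc51a (-5.98, SE 0.17) and Slc51b (-6.59, SE 0.52) export bile acids, Slc26a3 (-5.84, SE 0.35) exchanges chloride for bicarbonate, and Slc39a5 (-6.78, SE 0.18) carries zinc. Slc51b read 6.73 on skin array 1 and 4.00 on the others. Slc5a1, the sodium-glucose cotransporter, and Slc15a1, the peptide transporter, were singled out after their values were seen. The first read 10.59 and 10.54 in small intestine (-5.0, SE 0.26). The second read 6.95 and 6.14 there against 6.21, 6.02 and 6.48 in skin (-0.31, 95% interval -0.88 to 0.26).

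Genes of lipid uptake and lipoprotein assembly followed the same pattern, with 32 of 43 higher in small intestine, 1 higher in skin and a median of -3.87. Fabp1 read 4.29, 4.00 and 4.04 in skin and 13.12 and 12.88 in small intestine, and Fabp2, the intestinal fatty acid-binding protein, 4.41, 4.25 and 4.63 against 12.81 and 12.85. Apob, the core protein of chylomicrons, read 4.18, 4.37 and 4.69 against 11.94 and 12.63 (-7.86, SE 0.91). In all 3 genes the tissues were far apart. Apoa4 differed by -8.19 (SE 1.49), Apoc3 by -8.27 (SE 0.85), and Pla2g12b, a secreted phospholipase relative, by -8.24 (SE 1.53).

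For the intestinal genes the motif of HNF4 was searched as CAAAGTCCA, that of CDX factors as TTTATNG, that of GATA factors as AGATAA, and that of HNF1 by its usual consensus. HNF4 letters stood in 13 of 405 promoters of genes at least 8-fold higher in small intestine (3.21%), in 1 of 333 of genes at least 8-fold higher in skin (0.3%) and in 0.464% of all 14453. CDX letters stood in 12.6%, 15.3% and 8.44% of the same sets, and GATA letters in 13.3%, 12% and 8.13%. Both were thus above the share in all genes in either tissue's set. CDX letters stood in 12 of 36 lipid gene promoters (33.3%) and 5 of 19 hydrolase promoters (26.3%), but in 2 of 24 brush border structure promoters (8.33%) and 7 of 36 cornified envelope promoters (19.4%). On the reverse strand the CDX motif reads CNATAAA and can overlap a TATA box. TATA boxes stood in 15.3% of the small intestine set and 21.6% of the skin set. In the lipid, hydrolase, brush border structure and cornified envelope promoters their shares were 36.1%, 31.6%, 8.33% and 50%. How far matches to the CDX motif and the TATA box coincide was not tested. HNF1 letters stood in 2, 0 and 6 promoters of the 3 sets. AP-1 letters stood in 9.14% of the small intestine set and 14.7% of the skin set, and the grainyhead-like motif AACCNGTT in 1.73%, 2.1% and 1.91% of the small intestine set, the skin set and all genes. Among the genes at least 8-fold higher in small intestine, 12 are of the pancreas list, including the elastase gene Cela2a. Their part in these shares was not tested. The windows below are the 200 bases before the start on the gene's strand, with motif letters in capitals. These are CDX in Fabp1 (chr6:71199679-71199878, plus strand) and Fabp2 (chr3:122894872-122895071, plus strand), CDX then HNF4 in Cela2a (chr4:141826006-141826205, minus strand), and GATA in Gip (chr11:96024345-96024544, plus strand).
Fabp1: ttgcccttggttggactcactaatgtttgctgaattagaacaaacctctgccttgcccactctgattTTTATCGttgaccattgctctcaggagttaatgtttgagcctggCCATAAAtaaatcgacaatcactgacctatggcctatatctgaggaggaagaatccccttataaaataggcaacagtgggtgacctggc
Fabp2: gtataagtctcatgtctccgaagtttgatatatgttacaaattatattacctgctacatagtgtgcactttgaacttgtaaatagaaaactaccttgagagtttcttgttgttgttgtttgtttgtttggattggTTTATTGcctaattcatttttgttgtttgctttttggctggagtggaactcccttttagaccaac
Cela2a: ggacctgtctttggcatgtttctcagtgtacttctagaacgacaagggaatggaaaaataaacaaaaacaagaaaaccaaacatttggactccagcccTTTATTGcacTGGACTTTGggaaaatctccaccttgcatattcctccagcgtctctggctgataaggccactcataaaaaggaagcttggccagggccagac
Gip: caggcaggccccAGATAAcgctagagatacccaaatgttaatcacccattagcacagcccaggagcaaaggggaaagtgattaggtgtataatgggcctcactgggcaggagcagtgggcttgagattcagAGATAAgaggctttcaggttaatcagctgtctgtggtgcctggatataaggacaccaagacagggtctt

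Xenobiotic and retinoid enzymes were higher in small intestine for 26 of 43 members and in skin for 2 (median -2.78). Aldh1b1, an aldehyde dehydrogenase (-7.22, SE 0.27), the aldo-keto reductases Akr1c12 (-7.21, SE 0.32) and Akr1c13 (-7.03, SE 0.20), the cytochromes Cyp2d26 (-6.11, SE 0.19) and Cyp2j6 (-6.08, SE 0.18), the sulfotransferase Sult1b1 (-6.02, SE 0.49), the carboxylesterase Ces2e (-5.90, SE 0.24) and the glucuronosyltransferase Ugt2b5 (-5.93, SE 0.25) had the largest differences. Akr1c12 and Akr1c13 are close copies, and their probe sets may read both.

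**Figure D4:**
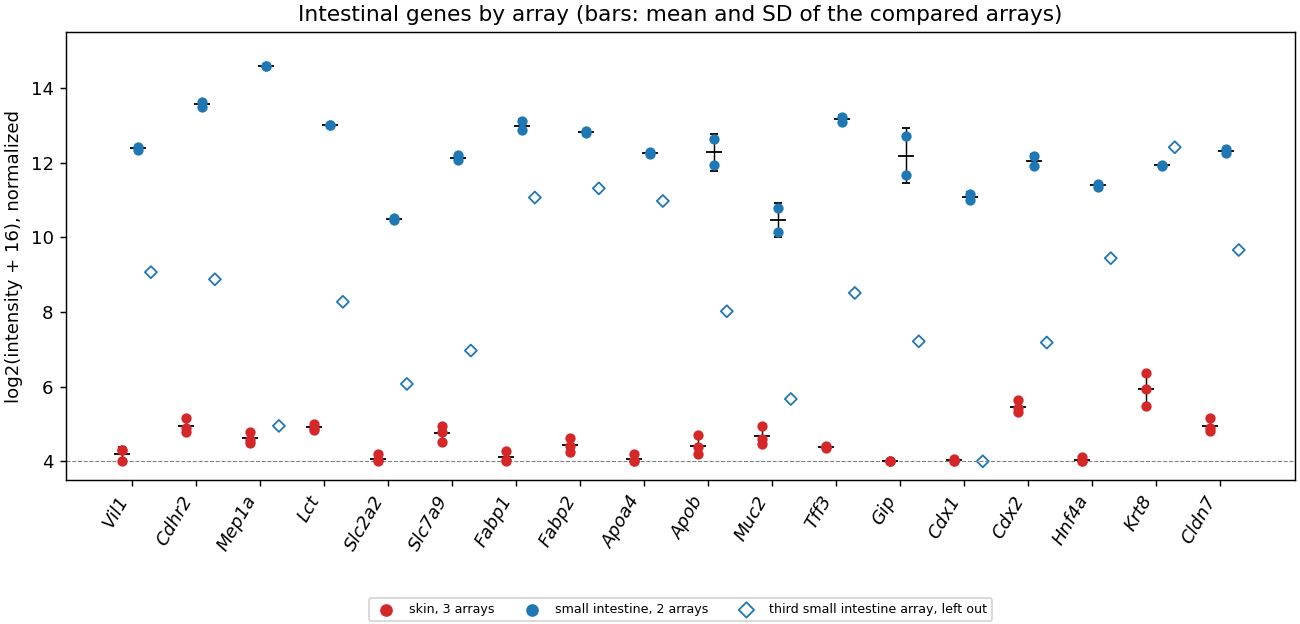
Level of 18 intestinal genes, log2(intensity + 16), on each E18.5 array, drawn as in the plot of epidermal genes: red points are skin (3 arrays), blue points small intestine (2 arrays), open diamonds small intestine array 3, black bars the mean and SD of the compared arrays. Skin lies at or near the floor of 4 for most genes. The open diamond is at 4.95 for Mep1a and 4.00 for Cdx1, but at 12.42 for Krt8.

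Genes of secretory lineages were also higher in small intestine. Of 29 goblet cell and mucus genes, 18 were higher in small intestine and 1 in skin (median -2.07). Muc2, the gel-forming mucin, read 4.46, 4.60 and 4.96 in skin and 10.14 and 10.80 in small intestine (-5.80, SE 0.29), Muc13 differed by -8.17 (SE 0.69), Fcgbp by -7.85 (SE 0.42) and Clca1 by -7.29 (SE 0.27). Spink1, Spink4 and Zg16 differed by -7.97 (SE 1.26), -6.54 (SE 0.51) and -7.24 (SE 0.27); Spink1 and Zg16 are also made by pancreas. Of 28 hormone cell genes, 18 were higher in small intestine and 0 in skin (median -1.29). Gip, the incretin of K cells, read 4.00 on all skin arrays and 11.68 and 12.71 in small intestine, Cck, cholecystokinin, differed by -7.45 (SE 0.27), Chgb by -6.13 (SE 0.45), Sst by -5.44 (SE 0.54), Ghrl by -4.09 (SE 0.29) and Nts by -2.34 (SE 0.37).

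Genes of crypt stem, Paneth and tuft cells did not divide by tissue: 7 of 32 were higher in skin and 7 in small intestine, with a median of 0.09. Olfm4 (-7.87, SE 0.17), Reg4 (-6.81, SE 0.35), Reg3b (-5.95, SE 0.31), Ascl2 (-3.99, SE 0.53) and Atoh1 (-1.90, SE 0.26) were higher in small intestine. The stem and Wnt target genes Tnfrsf19 (3.36, SE 0.22), Cd44 (2.64, SE 0.25) and Ephb3 (1.88, SE 0.25) were higher in skin. Lgr5, which marks stem cells of both crypts and hair follicles and was singled out after its values were seen, read 7.88, 7.49 and 7.90 in skin and 6.16 and 6.45 in small intestine (1.46, SE 0.29).

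Of 31 intestinal transcription factors, 21 were higher in small intestine and 3 in skin (median -3.44). Cdx1 and Cdx2 are homeobox factors of intestinal identity. Cdx1 had a mean of 11.09 in small intestine and 4.02 in skin, and differed by -7.07 (SE 0.16). Cdx2 read 12.18 and 11.91 in small intestine and 5.32, 5.64 and 5.44 in skin, and differed by -6.58 (SE 1.12). The nuclear receptors Hnf4a (-7.35, SE 1.04) and Hnf4g (-5.29, SE 0.23) act in enterocyte differentiation, Nr1h4 (-6.04, SE 0.42) senses bile acids and Nr1i2 (-5.09, SE 0.16) xenobiotics. Gata4, Gata5 and Gata6 differed by -4.32 (SE 0.25), -4.25 (SE 0.23) and -4.93 (SE 0.29). Isx (-5.57, SE 0.32), which controls carotenoid uptake, Onecut2 (-5.28, SE 0.26), Creb3l3 (-5.96, SE 0.58) and Pdx1 (-3.44, SE 0.19) of the proximal gut were higher as well. Esrra, a nuclear receptor of energy metabolism, read 5.54, 5.56 and 5.53 in E18.5 skin and 11.76 and 11.88 in small intestine (-6.28, SE 0.17), but had a mean of 9.75 ± 0.14 (SD, n = 3) in skin at E16.5. Tcf4 (1.87, SE 0.32), Klf15 (1.54, SE 0.26) and Tcf7l2 (1.06, SE 0.40) were the 3 higher in skin; Tcf7l2 read 8.17 on skin array 3 and 6.07 and 5.93 on the others, and without array 3 its difference was 0.34 (adjusted p = 0.216). It missed the threshold without small intestine array 1 or 2 as well (adjusted p 0.0674 and 0.260). Sox9 (0.50, 95% interval 0.03 to 0.96) and Hes1 (0.44, -0.02 to 0.90) were not called.

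Some genes of junctions and polarity are used by epithelia of both kinds. Cdh1, the E-cadherin of adherens junctions, read 11.21, 11.57 and 11.50 in skin and 11.58 and 11.45 in small intestine, a difference of -0.09 (95% interval -0.46 to 0.28). F11r, a junctional adhesion molecule, differed by 0.01 (-0.46 to 0.48) and the Krüppel-like factor Klf5 by -0.33 (-0.76 to 0.10). For these 3 genes the interval excludes a 2-fold difference. The P-cadherin gene Cdh3 read 12.12, 12.89 and 12.26 in skin and 4.39 and 4.29 in small intestine, a difference with no overlap.

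Over the whole shared list, 8 of 38 were higher in skin and 22 in small intestine (median -1.13). Higher in skin were Cdh3, Klf4 (3.13, SE 0.26), Esrp1, an epithelial splicing factor (2.33, SE 0.19), Rab25 (1.19, SE 0.29; 0.99 and adjusted p = 0.0511 without small intestine array 2), Grhl2, Dsp, Jup and Pkp3. Klf4, which acts in epidermal barrier formation and in goblet cells, read 10.94, 10.91 and 12.10 in skin and 7.98 and 8.40 in small intestine. Elf3, an Ets factor, read 7.61, 7.45 and 7.33 in skin and 12.07 and 12.01 in small intestine (-4.58, SE 0.35), and Epcam differed by -2.83 (SE 0.27). The tight junction genes Ocln (-2.97, SE 0.57), Cgn (-2.28, SE 0.21), Tjp3 (-1.46, SE 0.23), Marveld2 (-1.13, SE 0.20) and Marveld3 (-2.34, SE 0.35) and the polarity genes Crb3 (-2.43, SE 0.30), Patj (-1.45, SE 0.31), Pard6b (-1.58, SE 0.24) and Llgl2 (-1.96, SE 0.19) were higher in small intestine. Ocln read 5.72 and 6.63 on skin arrays 1 and 2 and 9.32 on skin array 3, and was not called with only the 2 groups in the fit (adjusted p = 0.102). The membrane protease genes Prss8 (-1.18, SE 0.43) and St14 (-1.04, SE 0.35) each missed the threshold in 4 of the 5 fits that left out 1 array (adjusted p up to 0.170), and their inhibitors Spint1 (-2.05, SE 0.29) and Spint2 (-1.13, SE 0.19) were higher in small intestine. Spint2 differed by -0.88, under 2-fold, with the probe set brightest on the 5 arrays. Ehf, an Ets factor, read 4.78, 4.60 and 5.05 in skin and 6.87 and 7.04 in small intestine (-2.14, SE 0.28), but a second probe set, brighter on these 5 arrays, gave a difference of 0.40 (adjusted p = 0.176), so its direction depended on the probe set.

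Claudins set the permeability of tight junctions, and of 21 measured 4 were higher in skin, 6 in small intestine and 11 were not called (median -0.11). Cldn1, whose loss opens the epidermal barrier to water, read 9.56, 9.64 and 9.78 in skin and 6.68 and 6.41 in small intestine (3.12, SE 0.18). Cldn10 differed by 2.23 (SE 0.26), Cldn4 by 1.92 (SE 0.40) and the endothelial Cldn5 by 1.06 (SE 0.21); without small intestine array 1, Cldn4 was 1.11 (adjusted p = 0.0541) and Cldn5 0.77, and without skin array 3 Cldn5 was 0.90. Cldn7 read 4.88, 4.81 and 5.17 in skin and 12.38 and 12.27 in small intestine (-7.38, SE 0.51). The pore-forming Cldn2 (-6.42, SE 0.68) and Cldn15 (-3.71, SE 0.26) and the sealing Cldn3 (-5.38, SE 0.32) were also higher in small intestine. Cldn8 (-1.10, SE 0.30) and Cldn19 (-2.23, SE 0.64) were called in small intestine, but not without its array 1 (adjusted p 0.130 and 0.0554).

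Of 33 measured Hox genes, which encode position along the body axis, 11 were higher in skin and 3 in small intestine (median 0.31). Besides Hoxa7, the genes Hoxc6 (4.43, SE 0.66), Hoxc8 (3.32, SE 0.27), Hoxa9 (2.79, SE 0.31), Hoxd9 (2.62, SE 0.20) and Hoxc10 (2.31, SE 0.49) were higher in skin. Hoxc13 was also called, with small intestine listed at 0. Hoxc6 read 11.48, 7.59 and 10.78 on the skin arrays, all above 5.45 and 5.58 in small intestine. The 3 higher in small intestine were Hoxa3 (-2.22, SE 0.19), Hoxa4 and Hoxb5, the last 2 named because the count is small, at -2.11 (SE 0.30) and -1.50 (SE 0.32).

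Ligands, inhibitors, receptors, effectors and targets of the Hedgehog, Wnt and BMP pathways, which act between epithelium and mesenchyme in both organs, were higher in skin for 28 of 60 genes and in small intestine for 5 (median 0.98). The Hedgehog ligand differed by tissue. Shh read 10.04, 10.44 and 9.99 in skin and 6.26 and 5.82 in small intestine (4.11, SE 0.24), and Ihh read 4.63, 5.07 and 4.48 in skin and 9.94 and 9.35 in small intestine (-4.92, SE 0.35). Their common target Gli1 differed by 1.81 (SE 0.21) and the receptor and target Ptch1 by 0.67 (95% interval 0.32 to 1.03), both singled out after their values were seen. The Wnt ligands Wnt10a (3.63, SE 0.44) and Wnt7b (3.18, SE 0.22), the receptor Fzd10 (4.16, SE 0.32), the Wnt effector Lef1 (3.75, SE 0.30), the Wnt inhibitor Wif1 (5.80, SE 0.30) and the BMP and Wnt antagonist Sostdc1 (6.02, SE 0.30) were higher in skin.

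The other tissue layers differed with the epithelia, and their part in any gene shared between cell types was not tested. Of 30 dermal mesenchyme genes, 22 were higher in skin and 2 in small intestine (median 1.67), with Tbx15 (5.29, SE 0.39), Twist2 (4.97, SE 0.19) and Twist1 (4.17, SE 0.21), factors of dermal fibroblasts, among the largest. Lum, the matrix proteoglycan lumican, read 13.96, 11.08 and 13.72 in skin and 9.52 and 9.62 in small intestine. Of 30 genes of visceral mesenchyme and mesothelium, 16 were higher in small intestine and 3 in skin (median -1.25), led by Gata6, Upk3b (-4.44, SE 0.36) of mesothelium, and Foxf1 (-4.42, SE 0.34), the Hedgehog-responsive factor of gut mesenchyme. Gata6 was also counted among the intestinal transcription factors, so its difference cannot be assigned to mesenchyme.

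Muscle type separated the tissues as well. Of 32 skeletal muscle genes 25 were higher in skin and 0 in small intestine (median 3.81), and the mean level of the list was 9.62, 9.33 and 8.99 on the skin arrays. Acta1, skeletal alpha-actin, read 12.82, 12.76 and 12.55 in skin and 4.93 and 5.00 in small intestine (7.74, SE 0.26), and the fast troponin Tnnt3 13.00, 12.36 and 11.85 against 4.75 and 4.66. Of 20 smooth muscle genes 13 were higher in small intestine and 2 in skin (median -1.78), with Cnn1, calponin (-5.76, SE 0.50), Actg2, enteric actin (-4.96, SE 0.50), and Myh11, smooth muscle myosin (-3.36, SE 0.34). Synpo2 was called higher in skin (2.63, SE 0.25), but the mean of its probe sets differed by -0.19 (adjusted p = 0.432).

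Pigment, fat and nerve cells were measured in the same way. Of 15 melanocyte genes 9 were higher in skin and 1 in small intestine (median 2.04). Tyrp1, a melanin synthesis enzyme, read 13.29, 13.78 and 13.47 in skin and 4.04 and 7.82 on small intestine arrays 1 and 2, a difference of 5.69 without array 1 and 9.48 without array 2. Mlana read 4.00 and 8.80 on the same 2 arrays against 11.20, 12.12 and 11.27 in skin, with a difference of 2.73 without array 1 and 7.53 without array 2. Of 18 adipocyte genes 9 were higher in skin and 4 in small intestine (median 0.89). Adipoq read 11.40, 12.70 and 12.97 in skin against 4.51 and 4.06 in small intestine, and had a mean of 5.58 in skin at E16.5. Dgat2, the triglyceride synthesis enzyme also used by enterocytes, differed by -2.09 (SE 0.19). Of 31 enteric neuron and glia genes 17 were higher in small intestine and 1 in skin (median -1.28), with Vip, vasoactive intestinal peptide (-3.99, SE 0.39), Prph (-3.33, SE 0.48; -0.73 and not called with the mean of its probe sets), Gal (-3.26, SE 0.39) and Ret, the receptor of enteric progenitors (-2.24, SE 0.37). Of 9 cutaneous Schwann cell genes, Pou3f1, Egr2 (3.02, SE 0.41) and Pmp22 (2.45, SE 0.16) were higher in skin, and Fabp7 (-2.20, SE 0.45) was higher in small intestine. Mbp, Sox10, Cdh19, Gfra3 and Cnp were not called (-0.71 to 0.50). Pou3f1 was also counted among the transcription factors of epidermis and hair, so its difference cannot be assigned to Schwann cells.

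Blood, vessel and cell cycle genes were also measured, beside 10.8% of all genes called higher in skin and 11.4% higher in small intestine. At the 2-fold limit the counts of the lymphocyte, erythroid, endothelial and cell cycle lists were near or below these shares. They are therefore not read as a difference in those cells. Of 22 macrophage and mast cell genes 9 were higher in skin and 4 in small intestine (median 0.79), and the largest were 4 mast cell proteases. Cma1, chymase, read 12.02, 11.70 and 11.91 in skin and 4.83 and 5.25 in small intestine (6.83, SE 0.28), Cpa3 differed by 6.03 (SE 0.41), Mcpt4 by 5.57 (SE 0.36) and Tpsb2, tryptase, by 5.33 (SE 0.29). Cd74, the invariant chain of antigen presentation, was higher in small intestine (-2.55, SE 0.42). Of 16 lymphocyte genes 1 was higher in skin, Thy1 (4.94, SE 0.29), which fibroblasts also express, and of 13 erythroid genes 1, Sptb (1.01, SE 0.22), which fell under 2-fold without skin array 1, skin array 2 or small intestine array 1 (0.98, 0.89 and 0.86). Of 20 endothelial genes 3 were higher in skin and 2 in small intestine, among them Cdh5, VE-cadherin (-3.44, SE 0.22), and Sox18 (1.85, SE 0.34). Of 41 cell cycle genes 3 were higher in skin and 0 in small intestine (median 0.46), namely Aurkb (2.20, SE 0.31), Mcm2 (1.93, SE 0.54) and Foxm1 (1.15, SE 0.27). That count was 7 without skin array 1 or small intestine array 1 and 5 without skin array 3. With the probe sets brightest on the 5 arrays it was 1, and none of these 3 genes was called: Aurkb differed by 0.64, Mcm2 by 0.70 and Foxm1 by 0.15 (limma adjusted p 0.0667, 0.00243 and 0.756). With only the 2 groups in the fit it was 2. With no fold limit, 17 of the 41 cell cycle genes were higher in skin and 0 in small intestine. Over all 18194 genes that setting gave 3730 and 3378.

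Pancreatic transcripts were present on the small intestine arrays. Of 25 pancreas genes 17 were higher in small intestine and 0 in skin (median -2.57), with list means of 8.80 on array 1, 7.91 on array 2 and 5.07, 5.10 and 5.06 on the skin arrays. Cpa1, a pancreatic carboxypeptidase, read 9.74 and 7.09 in small intestine and Prss2, a trypsin, 10.13 and 8.50, while Ins2, insulin, read 7.17 and 6.91 against 6.58, 6.93 and 6.50 in skin. Ctrb1, chymotrypsinogen, read 11.99 and 10.29 and Pnliprp1, a lipase relative, 11.92 and 9.49. These exocrine genes were therefore higher on array 1 than on array 2, and their part in the count of genes higher in small intestine was not tested. Of 26 liver genes 5 were higher in small intestine and 1 in skin (median -0.59): Cps1 (-7.65, SE 0.59), an enzyme that enterocytes also make, Ttr (-6.55, SE 1.38), Afp (-6.23, SE 1.31), Serpina1b (-4.31, SE 1.06) and Ambp (-4.12, SE 0.60). Of 33 stomach genes 9 were higher in small intestine and 4 in skin (median -0.32), among them Tff2 (-5.20, SE 0.30), Gkn3 (-3.93, SE 0.31), Cym (-6.44, SE 0.27) and Pga5 (-4.39, SE 0.51). The stomach list includes Krt4, Krt5, Krt13, Krt15, Sprr2h and Sprr3, which are also in the epidermal keratin or envelope lists. Pga5, a pepsinogen, read 8.81 on array 1 and 12.09 on array 2. Of 14 bladder urothelium genes 4 were higher in skin and 5 in small intestine (median -0.02).

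Small intestine array 3, which was left out, differed from both others. The SD of its log2 differences was 1.09 to array 1 and 1.04 to array 2, and 1.13 to 1.16 to the skin arrays. It read nearer the skin mean for 43.6% of the genes called higher in skin and for 50.5% of those called higher in small intestine. Mep1a read 4.95 on it, Cdx1 4.00, Cdx2 7.18 and Vil1 9.07. It read more than 2-fold above both other arrays for 37 of 43 cornified envelope genes, 25 of 33 stomach genes and 21 of 26 liver genes, and more than 2-fold below both for 22 of 30 brush border structure genes. The envelope and stomach lists share members such as Sprr3, so their counts overlap. Sprr3 read 12.75 on it and Lce3b 12.16, both near the floor in E18.5 skin, while Krt27 was at 4.00.

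With array 3 included as a replicate, 1636 genes were higher in skin and 1864 higher in small intestine, and 337 and 405 at 8-fold. The cornified envelope list then held 27 members higher in skin and 4 higher in small intestine, the epidermal keratins 11 and 2, and the brush border structure list 1 and 26. The stomach list held 17 members higher in small intestine in place of 9, the liver list 8 in place of 5, the crypt list 4 in place of 7, and the shared epithelial list 5 higher in skin in place of 8. Krt1 differed by 5.74 with it and by 7.89 without. Of 379 named genes, 13 lost their call with it: Atoh1, Cldn8, Cldn19, Flt4, Fxyd3, Grhl2, Hopx, Hoxc8, Jup, Lad1, Marveld2, Rab25 and St14.

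**Figure D5:**
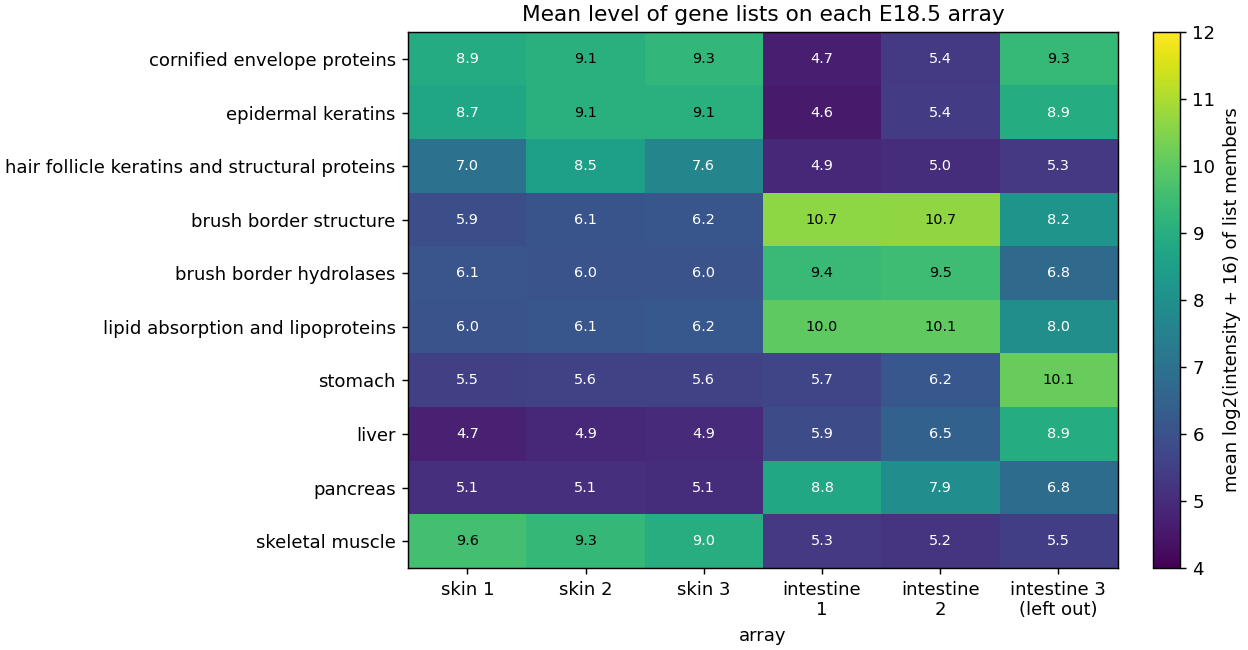
Mean log2(intensity + 16) of the members of 10 gene lists (rows) on each of the 6 E18.5 arrays (columns: 3 of skin, the 2 of small intestine that were compared, and array 3, which was left out). Colour and printed number give the mean. Array 3 is near skin in the cornified envelope and epidermal keratin lists, stands above all others in the stomach and liver lists, and lies between skin and small intestine in the brush border lists.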

How the data were processed

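RNA of E18.5 dorsal skin (3 arrays) and proximal small intestine (arrays 1 and 2, with array 3 given separately) was measured on 45101 probe sets. The authors deposited linear intensity values. The submitters' processing notes name Expression Console 1.1.1 (Affymetrix) and PLIER 2.0; any scaling between arrays is unstated in the sources used. The labels name the same random-primed labelling kit for all samples. A table pairing probe sets with genes named 34958 by 1 gene, 932 by several and 9211 by none; only the first were used, giving 18194 genes, each by the probe set with the highest mean over 26 arrays.

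Intensities (0 to 134762) were quantile-normalized over 26 arrays as log2(value + 16) and tested with limma 3.58.1 in R 4.3.3 over 25 arrays in 9 groups (16 residual degrees of freedom), with Benjamini-Hochberg adjustment; the script was tested on simulated data. The number of arrays limits the precision. On control probe sets these 6 arrays and E16.5 skin form 1 block of 9 that differs from the other 17 (BioB spike 6.52 to 7.66 against 10.26 to 11.56), so levels in other tissues were not compared. The actin control read higher at its 3′ than its 5′ end by 0.05 to 0.455 log2 units in the block and by 1.80 to 3.52 outside it. Before normalization, 31.2% of probe sets did not overlap between the block and the other 17 arrays. Normalization, choice of probe set and spread used arrays of both kinds. The cause was not tested. Within the block BioB read 6.52 to 7.08 in skin and 7.34 to 7.58 on small intestine arrays 1 and 2.

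Genes were named by rule: the 12 largest called without overlap each way (at most 3 per family), up to 8 called members per list, all members of lists of up to 10 genes, any shared epithelial, claudin or transcription factor gene, and defining markers. Others are said to be singled out or chosen after their values were seen. The groups, lists and genes were chosen with earlier results of these data known. A planned comparison of protein composition was not run.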

Additional observations from a re-analysis of the deposited data

Results flagged for a closer look

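Small intestine array 3, which was left out of the 5 arrays compared, carried stomach and liver transcripts above every skin and small intestine array compared, in log2(intensity + 16). Of the stomach genes, Gkn1 read 10.54 (highest of the 5 compared arrays 4.90), Gkn2 11.53 (6.48), Tff1 12.10 (9.71), Muc5ac 10.42 (4.12), Cblif 11.29 (4.43), Pgc 9.00 (4.67) and Ctse 12.46 (7.95). The subunits of the gastric proton pump read 11.76 for Atp4a (5.34) and 12.54 for Atp4b (7.03). Of the liver genes, Alb read 12.06 (9.24), Ahsg 10.79 (5.21) and Fgb 9.69 (6.04). The cause was not tested.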

How the results depend on the processing

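The 4 counts of called genes stayed within 1.5 times under other scalings, choices of probe set, fits and filters, except that with no fold limit 3730 genes were higher in skin and 3378 in small intestine, and with a pseudocount of 1 the 8-fold counts were 691 and 774, both by construction. Leaving out 1 array gave 1899 to 2012 and 2016 to 2099 genes at 2-fold, and 441 to 471 and 504 to 520 at 8-fold. Of 379 named genes followed, 2 reversed: Ehf at 0.40 with the probe set brightest on the 5 arrays, and Synpo2 at -0.19 with the mean of probe sets. Calls were lost by 8 genes with the mean of probe sets, by 7 each with the probe set brightest on the 5 arrays, a pseudocount of 1 and only the 2 groups in the fit, by 5 with the values as deposited, and by 4 to 12 on leaving out 1 array. With a pseudocount of 1 these included Rab25 (adjusted p 0.242), Klf15 (0.0588), Cldn19 (0.106), Prss8 (0.180), St14 (0.124) and Sptb (0.154). Tcf7l2 was 0.40 (adjusted p 0.123) and Sptb 0.72 with the mean of probe sets, and Dlx2 was 0.94 with the values as deposited. Restricting the fit to the 9 arrays of 1 block, chosen after seeing the data, gave 1980 and 2101 genes. Where 1 small intestine array was left out, that group added nothing to the spread. Those fits therefore cannot show that a call withstands disagreement between small intestine arrays 1 and 2. No paired analysis was possible because the labels give the skin and small intestine arrays no shared replicate numbers. Dim genes are limited by the floor: 124 genes were listed at 0 on all skin arrays and 189 on both small intestine arrays.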
